A study of Mus musculus with 10 samples.

Results

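The genes described here mark lymphocytes in whole mouse pancreas: 22 genes of T cells and natural killer (NK) cells and 18 genes of B cells and plasma cells, 40 in all. They were chosen by name as marker genes of these cells. Of the 40, 39 were measured, among 19938 genes on the arrays that could be tested, and each of the 39 had 1 transcript cluster of its own. Lck, the kinase that starts T cell receptor signalling, is left out, since the annotation gave it no cluster of its own. Pancreas RNA from 10 mouse samples of mixed strain background was read on microarrays (Affymetrix Mouse Gene 1.0 ST), 5 for a control group and 5 for a group called DKO. The genotype of the control group is given in the labels only as control. The DKO group carried PDX1Cre, Mst1-/- and Mst2L/L. MST1 and MST2 are kinases of the Hippo pathway. The labels are not of one mind on the cells that lack MST1: the genotype lists Mst1-/-, which read as written is a loss in every cell, while the sample description speaks of a deletion specific to the pancreas. Whether the lymphocytes of DKO mice lacked MST1 is therefore not settled here. The L/L allele of Mst2 is written as a floxed allele, which would be removed only where Cre acts under the Pdx1 promoter, in the pancreatic epithelial lineage, from which lymphocytes do not come. Ages are not given in the labels.

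T cells recognise antigen through a receptor whose CD3 chains pass the signal on to the kinases LCK and ZAP70 and the adaptor LAT. B cells use surface immunoglobulin with the signalling chains CD79A and CD79B, which act through BLNK. Plasma cells are B cells that have turned to antibody secretion. The healthy pancreas holds few lymphocytes, but lymph nodes lie along it, and they are dense in T and B cells. MST1 is known outside the pancreas for its part in the survival and trafficking of naive T cells. In whole-tissue RNA, fewer cells of a type and less RNA per cell cannot be told apart.

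Promoter sequences are shown for Cd27, the 1 member that differed between the groups, and for 3 members that hold a short motif of a lymphocyte transcription factor. RefSeq promoter windows of build GRCm38.p6, from 250 bases before to 50 bases after the gene start, were found for 29 of the 40 genes. They are printed 5′ to 3′ on the strand of the gene, with motif matches on either strand in capitals.
Cd27, chr6:125236978-125237277, minus strand: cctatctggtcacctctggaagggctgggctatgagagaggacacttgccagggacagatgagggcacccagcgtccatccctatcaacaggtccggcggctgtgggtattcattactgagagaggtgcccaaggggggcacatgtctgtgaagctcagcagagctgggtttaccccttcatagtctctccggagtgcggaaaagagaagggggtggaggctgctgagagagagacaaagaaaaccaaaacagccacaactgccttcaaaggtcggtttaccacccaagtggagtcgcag
Gzmb, chr14:56262285-56262584, minus strand: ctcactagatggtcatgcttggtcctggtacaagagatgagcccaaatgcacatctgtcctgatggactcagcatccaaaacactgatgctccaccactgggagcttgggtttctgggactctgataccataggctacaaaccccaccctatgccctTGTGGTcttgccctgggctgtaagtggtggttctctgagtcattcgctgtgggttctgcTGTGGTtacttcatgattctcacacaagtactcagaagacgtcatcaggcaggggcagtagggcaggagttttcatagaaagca
Cd22, chr7:30878979-30879278, minus strand: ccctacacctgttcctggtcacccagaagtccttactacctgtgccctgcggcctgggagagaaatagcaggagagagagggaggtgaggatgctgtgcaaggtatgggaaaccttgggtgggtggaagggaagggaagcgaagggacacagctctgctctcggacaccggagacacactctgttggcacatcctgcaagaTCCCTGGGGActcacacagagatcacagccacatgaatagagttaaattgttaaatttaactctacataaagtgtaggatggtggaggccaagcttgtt
Blnk, chr19:40994172-40994471, minus strand: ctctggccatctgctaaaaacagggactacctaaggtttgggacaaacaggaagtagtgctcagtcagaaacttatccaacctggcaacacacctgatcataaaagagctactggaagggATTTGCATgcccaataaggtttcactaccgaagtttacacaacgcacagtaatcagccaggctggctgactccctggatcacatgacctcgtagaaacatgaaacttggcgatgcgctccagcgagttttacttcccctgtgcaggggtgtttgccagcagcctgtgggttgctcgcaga
In Gzmb, the gene of a cytotoxic granule protease, the capitals mark TGTGGT, the letters bound by RUNX factors, at 93 and 34 bases before the start. In Cd22, a B cell inhibitory receptor, they mark the EBF letters (TCCC and GGGA with 2 bases between them), 49 bases before the start. In Blnk they mark the octamer ATGCAAAT, read here on the other strand, 130 bases before the start. The RUNX letters were found in promoters of 9 of 16 T and NK genes (9 of 19 windows, 47.4%) and of 2 of 13 B genes (2 of 15 windows, 13.3%), against 16.8% of all 32817 windows. The octamer and the EBF letters each stood in 1 member, against 1.74% and 0.905% of all windows. The letters GGAATG, bound by the TEAD partners of YAP, stood in 3 of 34 member windows (8.82%), those of Lck and Zap70, against 14.7% of all windows. The Cd27 window held none of the 4 motifs. All motifs were searched on both strands, and no match overlapped another in the windows printed. A match is a run of letters and does not show that a factor binds there.

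Of the whole series, in short, the acinar enzyme gene Cpa1 stood at 13.52 to 13.62 on the log2 scale on all 10 arrays. The deleted MST1 is coded by Stk4, whose cluster read 5.01 to 5.23 in control and 5.07 to 5.21 in DKO, near background, and gave no check of the genotype. High readings of Xist, which marks female tissue, were found on 3 control and 2 DKO arrays. DKO replicate 1 stood apart by hepatocyte transcripts (mean level of 8 genes 11.53, against 6.22 to 7.52 on the other 9 arrays). Precision is limited by having 5 arrays in each group. Since each group held arrays with high and with low Xist, the arrays of a group did not all come from 1 animal. Whether each array was a separate animal is not said in the labels, and the p-values cover only the spread among the arrays, which may be technical in part.

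Lymphocyte genes were dim in these arrays. The deposited values are log2 intensities that never reach 0, so background was set from 1207 chemosensory receptor genes (olfactory, vomeronasal and trace amine receptors), most of which are not expected in pancreas. The set need not be background in every gene, since its highest mean was 8.76 and 1 gene of it was called higher in DKO. The median level of the set was 4.31 and its 95th percentile 6.06. The mean level over all 10 arrays lay above that percentile for 22 of the 39 members, against 14881 of all 19938 genes. By cell type these were 11 of 21 T and NK genes and 11 of 18 B genes. In the plot of member levels against background, the members lie from 3.68 to 8.05, while the median of all genes is 7.59. With the 99th percentile, 6.84, as the limit, 8 members were above it. Probes differ in brightness for the same amount of RNA, so the limit is a description of the scale and not a test of expression for any 1 gene.

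**Figure D1:**
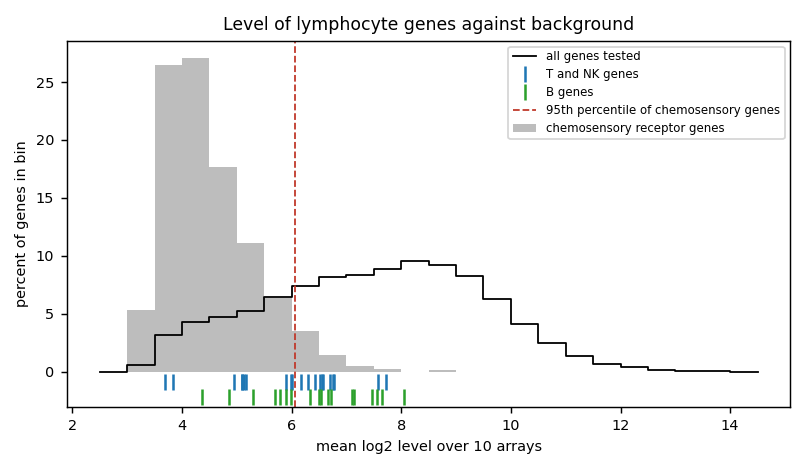
Percent of genes (vertical axis) by mean log2 level over 10 arrays (horizontal axis), for 1207 chemosensory receptor genes (grey bars) and all 19938 genes tested (black line). Ticks below 0 mark the 21 T and NK genes and the 18 B genes, and the dashed line is the chemosensory 95th percentile at 6.06, which 22 of the 39 ticks exceed.

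The readings of members also differed more between arrays than background readings did. The SD within groups, pooled over control and DKO, exceeded 0.179, the 95th percentile of chemosensory genes, in 28 of the 39 members and in 4365 of all 19938 genes. These were 13 of 21 T and NK genes and 15 of 18 B genes. The median pooled SD was 0.187 over T and NK members and 0.254 over B members, against 0.122 over all genes and 0.0901 over chemosensory genes. Cd3d, Trat1, Gzmb, Klrb1c and Cr2 were below both limits.

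The main comparison asked whether lymphocyte genes differed between DKO and control pancreas. One did. Cd27, a receptor of the TNF receptor family carried by T, NK and memory B cells, rose 1.4-fold in DKO, while none of the other 38 members passed an adjusted p of 0.05 (limma, Benjamini-Hochberg over all 19938 genes). At this threshold 2.08% of all genes were higher and 0.366% lower in DKO, and 2.44% were called in either direction. The share of members called was thus near that of all genes. At an unadjusted p of 0.05 there were 3 members, Cd27, Cd6 and Blnk, against 14.8% of all genes. At an adjusted p of 0.10 Cd27 and Cd6 passed, against 4.14% of all genes. The median log2 change was 0.03 over 21 T and NK members and 0.01 over 18 B members, against -0.01 over all genes, with 25 members above 0 and 14 below. The plot of changes with 95% intervals shows most intervals lying across 0, and those of Ms4a1, Cd79b and Ccl5 as the widest.

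**Figure D2:**
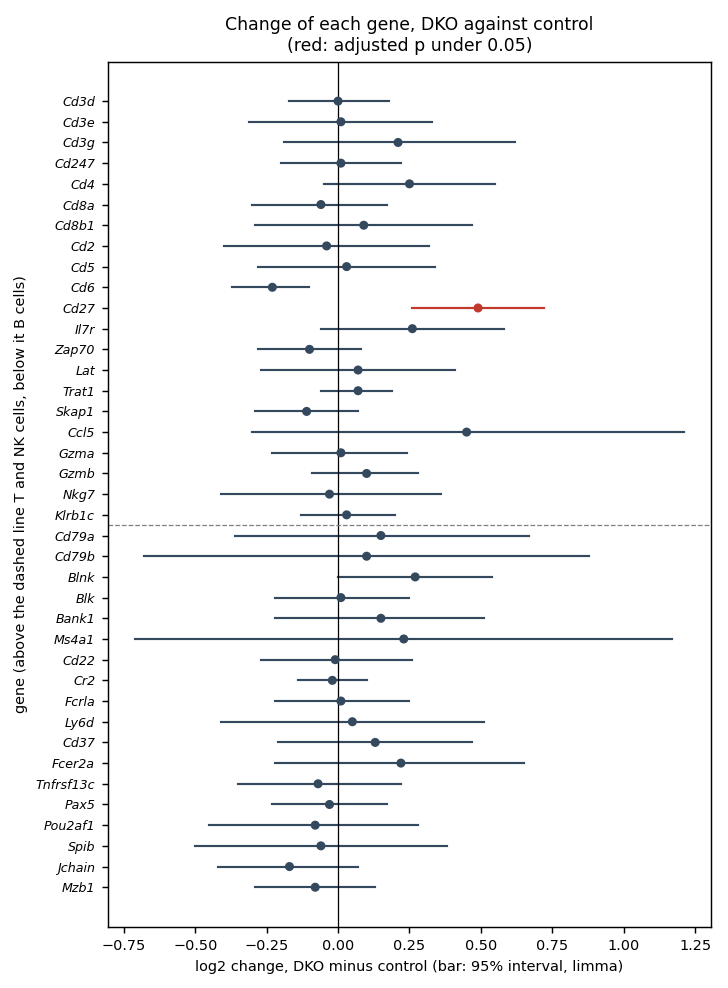
Log2 change of each of the 39 measured genes, DKO minus control (horizontal axis), with its 95% interval from limma, T and NK genes above the dashed line and B genes below it. Cd27 (red, 0.49, interval 0.26 to 0.72) is the 1 gene with an adjusted p under 0.05, the interval of Cd6 (-0.37 to -0.10) also lies off 0, and that of Blnk (0.00 to 0.54) borders on it.

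Cd27 measured 5.66, 5.77, 5.78, 5.92 and 5.59 on control arrays 1 to 5, and 6.51, 6.43, 6.04, 6.03 and 6.15 on DKO arrays 1 to 5. The DKO arrays lay above all control arrays, with replicates 1 and 2 highest. The log2 change was 0.49 ± 0.10 (SE, limma adjusted p = 0.0356), from 5.74 ± 0.13 in control to 6.23 ± 0.22 in DKO (SD, n = 5 each). Its mean over all arrays, 5.99, was at the 94.0 percentile of chemosensory genes and thus not above the background limit. The call was lost when 1 of 7 arrays was left out (each control array but replicate 4, and DKO replicates 1, 2 and 5), with adjusted p-values of 0.0620 to 0.0859 and changes of 0.42 to 0.54 over all 10. It also ended without moderated variance (adjusted p = 0.0949). Cd70, the ligand of CD27, stood at 5.56 to 5.74 in control and 5.31 to 5.71 in DKO (adjusted p = 0.475).

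Cd6, a T cell surface receptor that binds the adhesion molecule ALCAM, measured 6.83, 6.83, 6.95, 6.74 and 6.73 on control arrays 1 to 5, and 6.58, 6.70, 6.58, 6.62 and 6.45 on DKO arrays 1 to 5. Here the groups did not overlap either, with every DKO array below every control array. The log2 change was -0.23 ± 0.06 (SE, adjusted p = 0.085), which did not pass. Groups without overlap were seen in these 2 members (1 higher, 1 lower in DKO), and in 4.8% of all genes (3.52% higher, 1.28% lower).

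None of the 4 CD3 chains passed the test, nor an unadjusted p of 0.05. Cd3e, the epsilon chain, measured 7.48, 7.76, 7.72, 7.95 and 7.65 on control arrays 1 to 5, and 8.26, 7.72, 7.68, 7.41 and 7.52 on DKO arrays 1 to 5. DKO replicate 1 was the highest of the 10 arrays and DKO replicate 4 the lowest, so the DKO range enclosed that of control (log2 change 0.01 ± 0.15 SE, 95% interval -0.31 to 0.33, adjusted p = 0.986). Cd247, the zeta chain, differed by 0.01 and Cd3d by 0.00, with 95% intervals of -0.20 to 0.22 and -0.17 to 0.18. Cd3g, the gamma chain, measured 4.81, 4.86, 4.91, 5.42 and 4.97 on control arrays 1 to 5, and 5.53, 5.69, 5.18, 4.87 and 4.77 on DKO arrays 1 to 5. Control array 4 stood apart from the other controls, and DKO arrays 1 and 2 were the highest (log2 change 0.21, 95% interval -0.19 to 0.62, adjusted p = 0.619), all below the background limit.

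Among T cell surface receptors, Cd4, the coreceptor of helper T cells that macrophages can also carry, measured 6.48, 6.66, 6.76, 6.79 and 6.58 on control arrays 1 to 5, and 7.29, 7.17, 6.84, 6.64 and 6.58 on DKO arrays 1 to 5. DKO replicates 1 and 2 lay above every other array and the remaining 3 within the range of control or just above it (log2 change 0.25, 95% interval -0.05 to 0.55, adjusted p = 0.425). The cytotoxic T cell coreceptor genes Cd8a and Cd8b1 differed by -0.06 and 0.09 (adjusted p = 0.805 and 0.821), with means of both groups below the background limit. The adhesion receptor gene Cd2 and the inhibitory receptor gene Cd5 differed by -0.04 and 0.03. Il7r, the receptor for the survival cytokine interleukin 7, was 0.26 higher (adjusted p = 0.437) at a dim level. Its ligand gene Il7 read 4.36 to 4.65 in control and 4.51 to 4.85 in DKO (adjusted p = 0.548), also below the limit.

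None of the 4 measured signalling genes of the T cell receptor passed, nor an unadjusted p of 0.05. Zap70, the kinase bound to phosphorylated CD3 chains, differed by -0.10 (95% interval -0.28 to 0.08), and Skap1, an adaptor that links the receptor to integrins, by -0.11 (95% interval -0.29 to 0.07). Lat, the membrane adaptor on which the signal is assembled, measured 6.62, 6.72, 6.79, 6.75 and 6.71 on control arrays 1 to 5, and 7.40, 6.82, 6.83, 6.47 and 6.42 on DKO arrays 1 to 5. DKO replicate 1 stood highest, and DKO replicates 4 and 5 below every control array (log2 change 0.07, adjusted p = 0.858). Trat1, an adaptor that stabilises the receptor, was at the 14.1 percentile of chemosensory genes.

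Among cytotoxic and NK genes, Ccl5, a chemokine made by activated T and NK cells, varied most. Ccl5 measured 7.15, 7.26, 7.30, 7.65 and 7.38 on control arrays 1 to 5, and 9.10, 8.32, 7.25, 7.25 and 7.10 on DKO arrays 1 to 5. DKO replicates 1 and 2 were far above the other 8 arrays, and the other 3 DKO arrays lay within or just below the control range. The difference in means, 0.45 ± 0.34 (SE), did not pass (adjusted p = 0.568). Nkg7, a cytotoxic granule protein, measured 6.46, 6.42, 6.63, 7.09 and 6.23 on control arrays 1 to 5, and 6.86, 6.87, 6.23, 6.45 and 6.28 on DKO arrays 1 to 5, with control replicate 4 highest (log2 change -0.03, adjusted p = 0.956). Gzma and Gzmb, granule proteases, and Klrb1c, the NK receptor NK1.1, were below the background limit and differed by 0.01, 0.10 and 0.03.

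B cell genes showed larger swings between arrays and no called difference. Cd79b, a signalling chain of the B cell receptor, measured 7.50, 6.94, 7.65, 8.09 and 7.35 on control arrays 1 to 5, and 8.50, 8.43, 6.64, 7.22 and 7.23 on DKO arrays 1 to 5. DKO replicates 1 and 2 were the highest of the 10 arrays, DKO replicate 3 the lowest, and control replicate 4 came next after the high pair (log2 change 0.10, 95% interval -0.68 to 0.88, adjusted p = 0.915). Its partner Cd79a measured 6.26, 5.81, 5.98, 6.94 and 6.28 on control arrays 1 to 5, and 7.07, 6.61, 6.13, 6.19 and 6.03 on DKO arrays 1 to 5, and DKO replicate 1, control replicate 4 and DKO replicate 2 again stood highest (log2 change 0.15, adjusted p = 0.782). Ms4a1, the gene of the B cell antigen CD20, had the widest range of all members, with a mean over all arrays (5.78) below the background limit. It measured 5.73, 5.24, 5.43, 6.56 and 5.38 on control arrays 1 to 5, and 6.12, 7.41, 4.76, 5.57 and 5.62 on DKO arrays 1 to 5, and DKO held both the highest and the lowest array (log2 change 0.23 ± 0.43 SE, adjusted p = 0.825).

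**Figure D3:**
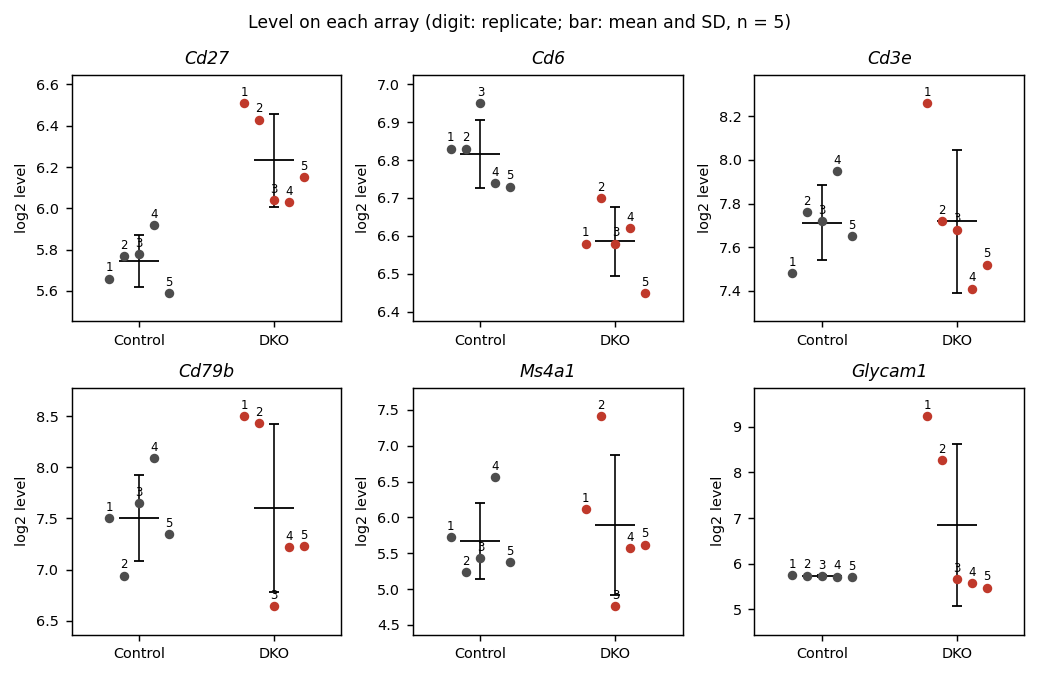
Log2 level of 6 genes on each of 10 arrays, by group (digits are replicate numbers, bars are the mean and SD, n = 5), with a vertical scale of its own in each panel. Cd27 and Cd6 separate the groups, whereas in Cd3e, Cd79b and Ms4a1 the spread within DKO exceeds the difference, and Glycam1, a lymph node vessel gene, is high on DKO replicates 1 and 2 alone.

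Blnk, the adaptor behind the B cell receptor, measured 7.44, 7.08, 7.22, 7.52 and 7.44 on control arrays 1 to 5, and 7.63, 7.86, 7.22, 7.59 and 7.75 on DKO arrays 1 to 5. It was 0.27 ± 0.12 (SE) higher in DKO, with overlapping groups, and did not pass (adjusted p = 0.33). Blnk departed from the other B cell genes in that DKO replicates 4 and 5, where most of them were low, were above every control array. Bank1 and Blk, a scaffold and a kinase of the same pathway, differed by 0.15 and 0.01, Blk with a mean level below the background limit. Of 8 B cell surface genes none passed, nor an unadjusted p of 0.05. Tnfrsf13c, the receptor of the survival factor BAFF, measured 7.97, 8.01, 8.27, 8.22 and 7.97 on control arrays 1 to 5, and 8.37, 8.28, 7.93, 7.75 and 7.76 on DKO arrays 1 to 5. The groups overlapped, with DKO array 1 highest and DKO arrays 3 to 5 below every control array (log2 change -0.07, 95% interval -0.35 to 0.22), and its ligand gene Tnfsf13b by 0.08 (adjusted p = 0.616). Cd37, a tetraspanin of leukocytes, measured 7.52, 7.48, 7.63, 7.70 and 7.55 on control arrays 1 to 5, and 8.16, 8.01, 7.21, 7.62 and 7.52 on DKO arrays 1 to 5. DKO arrays 1 and 2 were above all others and DKO array 3 below them (log2 change 0.13, adjusted p = 0.717). Ly6d, which is also made by some epithelia, differed by 0.05, and Fcer2a, the low-affinity IgE receptor CD23, by 0.22. Fcer2a reached 6.22 on DKO replicate 1, against 5.04 to 5.53 on the other arrays, with a mean over all arrays (5.29) below the background limit. Cd22, Fcrla and the complement receptor gene Cr2 differed by -0.01, 0.01 and -0.02 at levels below the background limit.

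The B cell transcription factor genes Pax5, Pou2af1 and Spib differed by -0.03, -0.08 and -0.06, and none passed (lowest adjusted p = 0.840). Pou2af1, the coactivator of octamer-binding factors, measured 6.90, 6.97, 7.39, 7.51 and 7.08 on control arrays 1 to 5, and 7.38, 7.48, 6.88, 6.97 and 6.73 on DKO arrays 1 to 5. Control replicate 4 was the highest, followed by DKO replicate 2, and DKO replicate 5 was the lowest. The plasma cell genes Jchain, the joining chain of secreted antibody, and Mzb1, a chaperone of antibody assembly, differed by -0.17 and -0.08 (adjusted p = 0.507 and 0.717). Control replicate 4 was the highest in Jchain at 4.80 and DKO replicate 1 in Mzb1 at 6.77. Jchain, with a mean at the 52.6 percentile of chemosensory genes, lay below the background limit.

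The members varied together by array more than by group. The highest reading fell on DKO replicate 1 in 25 of the 39 members, on DKO replicate 2 in 6 and on control replicate 4 in 5. These 3 arrays held the highest reading of 92.3% of members, against 36.5% of all genes and 33.9% of chemosensory genes; they were picked out after the values were seen. DKO replicates 1 and 2 were both above the other 3 DKO arrays in 31 members (15 of 21 T and NK, 16 of 18 B). This was 79.5% of members, against 12.2% of all genes and 19.8% of chemosensory genes. The lowest reading fell on DKO replicate 5 in 16 members (41%, against 19.8% of all genes), 12 of them T and NK genes. It fell on DKO replicate 3 in 7 members (17.9%, against 5.76% of all genes), all B genes. DKO replicate 5 also held the lowest reading of 35.8% of chemosensory genes, whose median there was 0.08 below their mean over all arrays. The part of this shift in the T and NK readings was not tested. Both patterns appear in the heat map of the members by array, where the columns of DKO replicates 1 and 2 and control replicate 4 are mostly red.

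**Figure D4:**
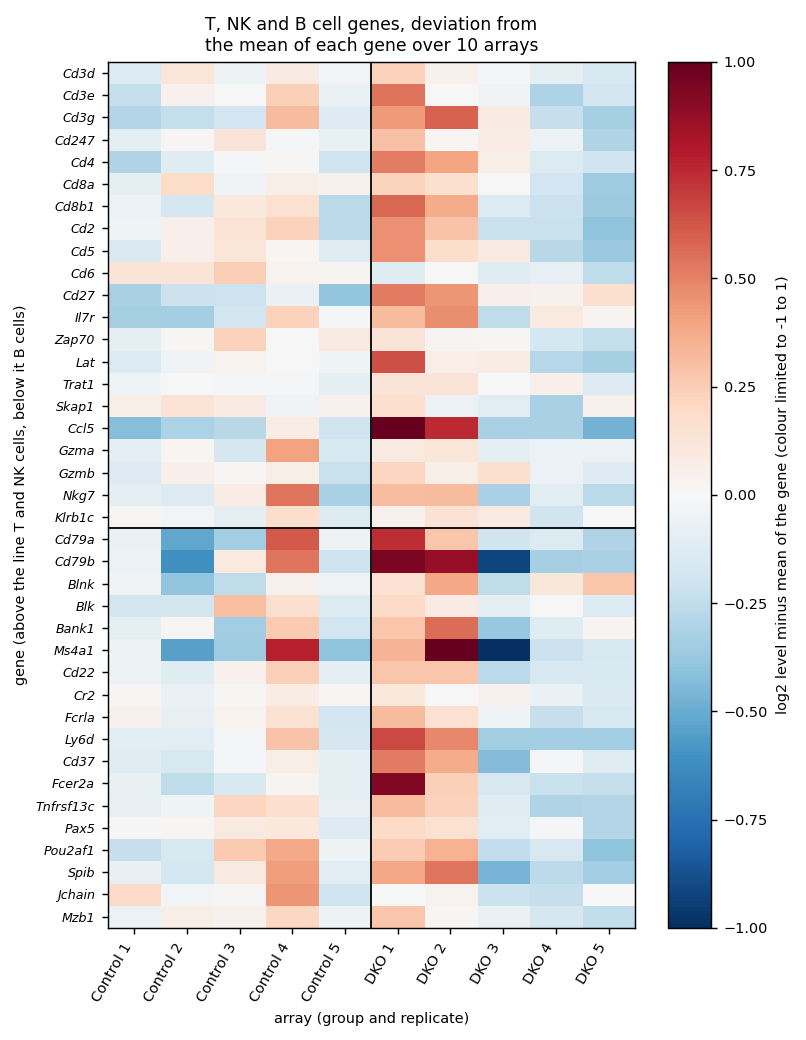
Log2 level of each of 39 genes (rows, T and NK genes above the horizontal line) on each of 10 arrays (columns, control left of the vertical line), minus the mean of that gene, in colours limited to -1 to 1. DKO replicate 1 holds the highest reading in 25 genes, and Cd27 and Cd6 are the rows whose colour changes at the group border.

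Some genes of other cells moved with these arrays, and others did not. Glycam1, a mucin made by the high endothelial venules through which lymphocytes enter lymph nodes, measured 5.76, 5.74, 5.73, 5.72 and 5.71 on control arrays 1 to 5, and 9.23, 8.27, 5.67, 5.57 and 5.48 on DKO arrays 1 to 5. It was high on DKO replicates 1 and 2 and level on the other 8 arrays. Ccl19, a chemokine of lymph node stroma that draws T cells, measured 7.37, 7.20, 7.16, 8.22 and 7.53 on control arrays 1 to 5, and 8.97, 8.53, 7.26, 7.25 and 7.36 on DKO arrays 1 to 5, and was highest on the same pair and next on control replicate 4. Of the 6 lymph node stroma and venule genes 5 were measured, none passed the test, and 4 of the 5 had control means above the background limit. Glycam1 did not, and passed the limit over all arrays only through DKO replicates 1 and 2. Their mean level was 7.40 to 7.70 over control arrays and 7.19 to 8.44 over DKO arrays, with 8.44 and 8.32 on DKO replicates 1 and 2. Madcam1, an adhesion molecule of venules, was highest on DKO replicate 1 too (7.96), but read 7.71 on DKO replicate 2, within the control range. Chst4 went the other way within DKO, at 6.61 and 6.66 on that pair and 7.21 to 7.45 on DKO replicates 3 to 5 (6.34 to 7.22 in control). The B cell chemokine gene Cxcl13 read 9.42 and 10.42 on the pair, against 9.41 to 10.59 in control. Hepatocyte genes were high on DKO replicate 1, not on replicate 2 (mean levels 11.53 and 6.44). On control replicate 4 the 4 measured erythroid and spleen genes had their highest mean, 9.45, against 7.82 to 9.06 on the other control arrays and 7.92 to 8.42 in DKO. The part of these other cells in the lymphocyte readings was not tested.

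Readings of other leukocyte genes also differed by array. The 8 pan-leukocyte genes, such as Ptprc, which codes for CD45, had a mean level of 9.04 and 9.03 on DKO replicates 1 and 2 and 8.13 to 8.70 on the rest, and none passed the test (1 at an unadjusted p of 0.05). Of 14 macrophage and myeloid genes none passed (4 at an unadjusted p of 0.05, against 14.8% of all genes). Their median change was 0.12, with 11 above 0 and 3 below. C1qa, a complement subunit made by macrophages, came nearest (-0.46 ± 0.11 SE, groups without overlap, adjusted p = 0.0556), and it passed in 9 of 23 alternative fits (adjusted p = 0.0273 to 0.0499 in those). The other C1q subunit genes, C1qb and C1qc, differed by 0.11 and 0.13. Cd68, Cd14 and Mrc1, the others at an unadjusted p under 0.05, were 0.25, 0.32 and 0.33 higher. Among the 14, control replicate 2 held the highest reading in 8. Of 6 neutrophil genes none passed (1 at an unadjusted p of 0.05, median change -0.34), and their mean level ranged over 6.71 to 7.46 on control arrays and 6.14 to 7.64 on DKO arrays. The plot of gene lists by array sets these medians beside those of the T, NK and B cell genes.

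**Figure D5:**
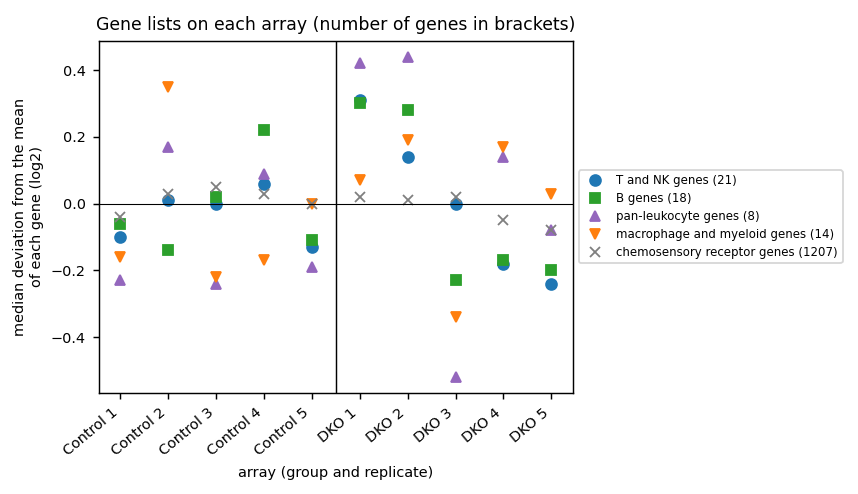
Median deviation of the genes of 5 lists from their means over all arrays (vertical axis, log2) on each of 10 arrays (horizontal axis, control left of the line). T and NK genes and B genes stand highest on DKO replicate 1 (0.31 and 0.30) and lowest on DKO replicates 5 and 3 (-0.24 and -0.23), while chemosensory genes stay within -0.08 and 0.05.

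A fit without DKO replicates 1 and 2, the arrays with high Glycam1, was added after the values were seen. No member passed in it, and 225 genes did, but with fewer arrays the loss of a call shows little. Cd27 was 0.33 ± 0.08 (SE) higher (adjusted p = 0.103). Since most members read highest on the arrays left out, lower DKO means follow from that choice of arrays, and nothing is read from the direction of the other members in this fit. The median change was -0.15 over T and NK members and -0.18 over B members, against 0.03 and 0.01 with all arrays in. Cd27 read 6.04, 6.03 and 6.15 on DKO replicates 3 to 5, above every control array. These are the same readings by which its groups did not overlap above, and they give no further support.

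Of 79 further genes listed for lymphocytes 73 were measured, with mean levels of 3.85 to 12.44. Some, the brightest above all, may be read mainly from other cells. Of the 73, none was higher and 1 lower, against 2.08% and 0.366% of all genes. At an unadjusted p of 0.05 there were 9, against 14.8% of all genes. The median change was 0.02. The 1 was Derl3, listed for plasma cells, an endoplasmic reticulum protein that acinar cells make in quantity (log2 change -0.38 ± 0.08 SE, adjusted p = 0.0359), and its call was lost when 1 of 7 arrays was left out (adjusted p up to 0.0876). Derl3 stood at 11.34 to 11.63 in control and 10.98 to 11.33 in DKO. Of 5 acinar genes 1 was lower, Rbpjl, a subunit of the acinar factor PTF1, at -0.45 (adjusted p = 0.0225), and its part in the Derl3 reading was not tested. None of 17 further T cell, 15 NK and cytotoxic or 17 B cell genes passed (2, 1 and 1 at an unadjusted p of 0.05). Of these, Thy1, a surface protein of T cells and also of fibroblasts, was 0.31 higher (adjusted p = 0.21), and Rasgrp1, an exchange factor for Ras in T cells, 0.35 higher (adjusted p = 0.327). Rasgrp1 read 7.83 and 7.94 on DKO replicates 1 and 2, against 7.12 to 7.30 on DKO replicates 3 to 5. Eomes, of the NK and cytotoxic list, differed by -0.20 and Swap70, of the B cell list, by 0.19 (adjusted p = 0.26 and 0.299).

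Genes that guide lymphocyte traffic, among them partners of MST1, were the next group. None of 15 measured passed in limma, and 3 had an unadjusted p under 0.05, against 14.8% of all genes. Mob1a, the adaptor that MST kinases phosphorylate, was 0.23 higher (adjusted p = 0.201), Foxo1, a transcription factor of naive T cells, -0.19 (adjusted p = 0.139), and Cxcr4, the receptor of CXCL12, -0.32 (adjusted p = 0.238). Rassf5, the gene of the MST1-binding protein RAPL, differed by -0.05. Ccr7, the receptor by which naive T cells find lymph nodes, read 7.74 and 7.17 on DKO replicates 1 and 2, and 6.36 to 6.88 elsewhere.

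Of 15 measured ligands that recruit or sustain lymphocytes 2 rose, against 2.08% of all genes called higher. The list was chosen with earlier results of these data known, so the count is not read as an excess among such ligands. Cxcl12, the CXCR4 ligand, rose from 8.68 ± 0.17 to 10.13 ± 0.23, and Cxcl16, a chemokine for activated T cells, from 7.23 ± 0.16 to 8.24 ± 0.25 (SD, n = 5 each; limma adjusted p = 0.000139 and 0.00137). Il15, a survival cytokine of NK and memory T cells, was 0.28 higher (adjusted p = 0.303) and passed in 1 fit, that without DKO replicate 1 (adjusted p = 0.0332). Cxcl12 and Cxcl16 were higher on all 5 DKO arrays than on any control array. Cxcl9 and Cxcl10, chemokines induced by interferon, differed by 0.20 and 0.27 with wide spread (adjusted p = 0.866 and 0.867).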

How the data were processed

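Log2 levels were deposited by the authors, 1 per transcript cluster and array, and were made with Affymetrix Expression Console, per the submitters' processing notes. Which version was run, and how background was removed and arrays were normalized, is not stated in the labels. Array medians of 7.12 to 7.15 over 35556 clusters show that the values were on a common scale, and they were used as deposited. Clusters with 1 gene symbol in the platform annotation (21789 of them) were kept, symbols were updated by gene identifier through a RefSeq table, and the cluster with the highest mean stood for a gene, which left 19938 genes.

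DKO was set against control in a limma fit (version 3.58.1, R 4.3.3; lmFit with eBayes, two-sided, Benjamini-Hochberg over all genes, threshold 0.05). Intervals are 95% intervals of that fit. On simulated data with the real mean and spread of each gene, log2 changes of 0.5 were recovered in 85.1% of 67 genes. Changes of 1 were recovered in 97.0% of 67, with 10 false calls among the genes left unchanged. The changed genes were drawn at random from all 19938, and the noise was independent between genes. Members had a median SE of 0.13, against 0.0754 over all genes, and varied together by array. These shares therefore do not give the recovery for members.

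The members, gene lists and tests were chosen with earlier results of these data known. The rule for names took all 40 members, Stk4, the sex-linked genes and, of each other list, up to 4 genes with the smallest p. Members called, at an unadjusted p under 0.05, among the 6 with the highest mean level or with 1 array apart are described singly. Further members were described singly after their values were seen. Cd70, Il7, Tnfsf13b, Ccr7, Cxcl9, Cxcl10, Cxcl13, Cpa1, Ptprc, C1qb and C1qc were also named then, as ligands, partners or markers. The pooled SD, the counts by array and the motifs were chosen then too. Alternatives tried were renormalization, filters, variance settings, cluster rules, leaving out arrays, the replicate block, the Xist level as a covariate and other thresholds. Same-numbered arrays of the groups did not deviate together in all pairs (residual correlations -0.267 to 0.290), so the numbers were not taken as pairs.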

Additional observations from a re-analysis of the deposited data

Results flagged for a closer look

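In 78 groups of 5 arrays (39 members in control and in DKO), 1 had an array far from the other 4 by Dixon's criterion, where chance flags about 1 in 20. It was Cd3g, a chain of the T cell receptor complex, in which control replicate 4 read 5.42 and the next control array 4.97.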

How the results depend on the processing

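The count of members higher in DKO, 1 (Cd27), stayed at 1 after quantile normalization again, subtraction of array medians, trended and robust variance, array weights, other cluster rules and the Xist covariate. It was 0 without the dimmest 25% of genes, which leaves 22 members tested and removes Cd27, and 0 without the dimmest 50%, which leaves 3. It was also 0 with unmoderated variance, at a threshold of 0.01, without control replicate 2 and DKO replicate 4 together, and without DKO replicates 1 and 2, an alternative chosen after seeing the data. The count of members lower was 0, and 1 (Cd6) at a threshold of 0.10. The count of other lymphocyte genes lower, 1 (Derl3), was 0 with unmoderated variance, at a threshold of 0.01 and in both fits without 2 arrays. Leaving out 1 array at a time gave counts of 0 to 1 for members higher and for other lymphocyte genes lower. With the replicate block both counts were 0 (Cd27 change 0.49, adjusted p = 0.135). The numbers are no proven pairs: residual correlations of same-numbered arrays were -0.267, -0.203, 0.290, -0.223 and 0.207, and the block changed no other call of a member. The members above background were 22, 8 with the 99th percentile of chemosensory genes as the limit, and 28 with the highest level of sex-linked genes where these are not expressed. Over 20 alternatives the median change was -0.15 to 0.09 for T and NK members and -0.18 to 0.06 for B members, below 0 in 3 and 6 of them; the lowest value of each is that without DKO replicates 1 and 2, whose direction follows from the choice of arrays. Among other named genes C1qa, not called, passed in 9 of 23 alternatives, with quantile normalization again (adjusted p = 0.0273), array medians subtracted (0.0388), both filters on dim genes (0.0459 and 0.0346), trended and robust variance (0.0456), array weights (0.0383), the replicate block (0.0440), and without control replicate 1 (0.0473) or DKO replicate 5 (0.0499), and up to 0.223 in the rest. Il15 passed without DKO replicate 1 alone. Probes near background limit what can be seen of the dimmest members.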

Other observations

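Antigen receptor genes are rearranged in lymphocytes and belong to families of near-identical segments, so single probe readings are uncertain. Of 20 such genes with a cluster of their own none passed in limma, and the set was chosen after its values were seen. At an unadjusted p of 0.05 there were 2, against 14.8% of all genes. The immunoglobulin kappa segment Igkv19-93 read 6.96 and 7.22 on DKO replicates 1 and 2, 6.73 on control replicate 4 and 6.03 to 6.48 on the other 7 arrays. Not all segments followed this pattern: Igkv4-55 read 5.90 and 5.81 on DKO replicates 1 and 2, against 5.79 to 6.34 in control. Trgv1, a segment of the gamma delta T cell receptor, was 0.29 higher in DKO (adjusted p = 0.0954), at 4.42 to 4.68 in control and 4.62 to 4.94 in DKO. Its mean over all arrays, 4.67, was below the background limit. Igkv8-30, the other gene at an unadjusted p of 0.05, differed by -0.19 (limma adjusted p = 0.282), also below the limit. Of the 20 changes 6 were above 0 and 14 below, with a median of -0.05.

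On chromosome 6, the genes next to Cd27 in the order of RefSeq and measured here did not pass the test. Tapbpl, an antigen presentation protein on one side, was 0.18 higher (adjusted p = 0.568), and Tuba3a, a tubulin gene on the other side, differed by -0.15 (adjusted p = 0.298). Further out, Ltbr, the lymphotoxin beta receptor, differed by 0.10 and Scnn1a, a subunit of the epithelial sodium channel, by 0.33 (adjusted p = 0.646 and 0.499).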
